A study of Mus musculus with 6 samples.

Results

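Tubulin mRNA of mouse blood platelets is described here for 10 genes, the β-tubulin isotypes Tubb1, Tubb2a, Tubb4b, Tubb5 and Tubb6 and the α-tubulin isotypes Tuba1a, Tuba1b, Tuba1c, Tuba4a and Tuba8. They were taken by gene symbol from tables that list 24346 symbols, and all 10 were found. Libraries came from wild-type mice (WT, 3 libraries) and from mice homozygous for a knock-in of the amino acid change R734C in integrin β3 (Homo, 3 libraries), the β chain of the platelet fibrinogen receptor, in its cytoplasmic region. The cells are labelled as thrombocytes from blood. The labels give no strain, age or sex and do not say whether libraries of a group came from separate animals, so a p-value measures only the spread between these libraries, which may be technical. The series title concerns large platelets in low number, and the comparison asks which platelet mRNAs differ between the genotypes.

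Microtubules are hollow polymers of tubulin, a dimer of 1 α and 1 β chain. In a resting platelet they are coiled into the marginal band, a ring under the membrane that holds the disc shape, and in megakaryocytes they drive the outgrowth of proplatelets from which platelets are released. Tubb1 is made almost only in megakaryocytes and platelets and is the main β chain of the band, and inherited changes in it cause large platelets in low number. The isotypes are alike along most of their length and differ most in the acidic tail at the end of the chain, which projects from the microtubule surface and carries added glutamate or glycine chains and, on most α chains, a final tyrosine that can be removed and put back.

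The coding ends show how the isotypes differ. For 3 abundant β isotypes and for Tuba4a and Tuba8, the last 60 coding bases before the stop codon are printed from GENCODE M21 transcripts (GRCm38), 5′ to 3′ along the mRNA. Capitals mark in-frame GAA and GAG codons, which encode glutamate.
Tubb1: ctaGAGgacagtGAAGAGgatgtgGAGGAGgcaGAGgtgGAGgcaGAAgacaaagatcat
Tubb2a: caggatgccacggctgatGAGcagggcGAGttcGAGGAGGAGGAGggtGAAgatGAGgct
Tubb4b: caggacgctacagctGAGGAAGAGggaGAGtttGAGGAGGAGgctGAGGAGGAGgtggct
Tuba4a: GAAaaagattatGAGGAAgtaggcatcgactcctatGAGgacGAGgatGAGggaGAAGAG
Tuba8: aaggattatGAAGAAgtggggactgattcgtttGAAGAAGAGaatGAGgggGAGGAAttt

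These stretches lie at chr2:174457820-174457879 (plus strand) for Tubb1, chr13:34074471-34074530 (minus) for Tubb2a and chr2:25222311-25222370 (minus) for Tubb4b. They lie at chr1:75215625-75215684 (minus) for Tuba4a and chr6:121226017-121226076 (plus) for Tuba8, each within 1 coding exon. Of the 20 codons shown, 10 encode glutamate in Tubb4b and 8 in each of Tubb1, Tubb2a, Tuba4a and Tuba8. The last codon is GAG (glutamate) in Tuba4a and TTT (phenylalanine) in Tuba8. Tubb1 ends in CAT (histidine), and Tubb2a and Tubb4b end in GCT (alanine).

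Likeness between isotypes limits how surely their reads can be told apart. Tubb1 stands apart from the other β members, with 72.9% to 75.8% identical positions in end-to-end alignments of the coding sequences, and 0 of its 1357 stretches of 50 bases occur in transcripts of another annotated gene. The annotated Tubb1 transcript ends with the stop codon, so these stretches cover no bases after it. Tuba1a, Tuba1b and Tuba1c are 97.1% to 98.3% identical to each other, and 75.5%, 83.1% and 61.0% of their stretches of 50 bases are shared with other genes or pseudogenes. Tubb2a is 96.5% identical to Tubb2b, which is not among the 10 members, and shares 49.6% of such stretches, while Tubb4b shares 55.5%, in part with its pseudogenes. Exons of Tuba4a overlap those of Stk16 on the opposite strand, and 48.8% of its stretches of 50 bases are shared with Stk16 or Gm12201. Exons of Tubb4b overlap those of Fam166a. Exons of Tuba8 and Tuba1b overlap Gm15856 and Gm41396 on the opposite strand, and those of Tuba1a and Tuba1b overlap Gm49450 on the same strand; levels of these 3 were not used here. The library kit does not mark strand. Of the other partners the levels were low, with 0.455 to 3.03 FPKM (fragments scaled to transcript length and library size) for Stk16 and at most 0.338 for Fam166a. No source used here says how the counting treated shared reads, so the split among the Tuba1 genes and between Tubb2a and Tubb2b is uncertain. For the same reason a low listed level of Stk16 or Fam166a does not show where reads of the shared stretches were counted. The levels of Tuba4a and Tubb4b carry this limit too.

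Across the whole tables, 8383 to 9006 genes were above 0 FPKM per library. Libraries differed in red cell RNA, with haemoglobin at 12.8%, 7.203% and 5.71% of the summed FPKM in WT libraries 1, 2 and 3 and 20.4%, 3.20% and 4.04% in Homo libraries 1, 2 and 3. Platelet markers (Pf4, Ppbp, Itga2b, Gp9, Gp1bb, Gp6, Clec1b and Treml1) were all abundant and summed to 44624 to 47639 FPKM in WT and 44132 to 49830 in Homo libraries. Of these 8 markers 0 passed the test, where 3.99% of all genes tested fell and 4.36% rose. Homo lay wholly below WT for Ppbp and Gp6 and wholly above for Pf4 and Gp9, so opposite shifts meet in the sum. Of all genes tested, 15.8% lay wholly below and 14.9% wholly above. Markers of neutrophils summed to 0.252 to 2.31 FPKM in WT and 0.727 to 2.08 in Homo. Those of T and NK cells summed to 2.67 to 4.42 in WT and 5.06 to 8.83 in Homo, nearly all of it from Nkg7, with Cd3e, Cd3d and Klrb1c at 0 in every library. Those of B cells summed to 0.193 to 1.92 and 0.837 to 3.14, and 10 cell division genes to 6.07 to 10.2 and 5.27 to 10.6. The list of monocyte and macrophage markers summed to 7486 to 8636 FPKM in WT and 7571 to 9467 in Homo, nearly all of it from Lyz2 and F13a1, while Csf1r stayed at or under 0.725 FPKM.

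Of the β-tubulins, Tubb1 dominated. It measured 6601, 6974 and 6147 FPKM in the WT libraries and 3900, 3558 and 3673 in the Homo libraries, so every Homo value lay below every WT value. FPKM is per length, so levels of different genes can be set side by side. The annotation and the treatment of shared reads are unknown, which limits such comparisons between isotypes. Tubb1 was the 15th to 18th most abundant symbol in WT libraries and the 27th in each Homo library. Tubb2a, a broadly expressed β isotype that is abundant in neurons, was next, at 719, 663 and 490 FPKM in WT and 500, 431 and 438 in Homo. The highest Homo value of Tubb2a exceeded the lowest WT value, so its groups overlapped. Tubb4b, an isotype also found in cilia, measured 260, 297 and 254 FPKM in WT and 181, 142 and 167 in Homo, without overlap. Tubb6 was low at 8.09, 5.88 and 6.60 FPKM in WT and 6.96, 6.06 and 3.45 in Homo. Tubb5, the common β chain of dividing cells, was lowest at 3.28, 4.24 and 4.59 FPKM in WT and 4.29, 2.80 and 1.98 in Homo. Both of these low genes had overlapping groups. The order Tubb1, Tubb2a, Tubb4b, Tubb6, Tubb5 held in each of the 6 libraries, and neighbours in that order had separate ranges within each group except Tubb6 and Tubb5 in Homo.

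Of the α-tubulins, no single gene dominated. Tuba4a, whose mRNA encodes a chain without the final tyrosine, measured 220, 274 and 288 FPKM in WT and 181, 190 and 163 in Homo, and Homo lay below WT throughout. Tuba1a, the main α chain of developing neurons, measured 218, 242 and 242 FPKM in WT and 126, 118 and 112 in Homo, also without overlap. Tuba8 measured 88.6, 81.3 and 68.7 FPKM in WT and 53.8, 70.9 and 69.4 in Homo, and its groups overlapped. Of the other Tuba1 genes, Tuba1c measured 31.8, 30.0 and 30.7 FPKM in WT and 13.2, 14.6 and 13.1 in Homo, less than any WT value. Tuba1b, a major α chain of dividing cells, was listed at only 7.72, 7.32 and 8.09 FPKM in WT and 4.25, 3.13 and 2.46 in Homo, again without overlap. Tuba4a exceeded Tuba1a in each of the 6 libraries, 1.11-fold by group mean in WT, where their ranges overlapped. In Homo the excess was 1.497-fold, without overlap. Because the split among the Tuba1 genes is uncertain, this order is too. Summed, the Tuba1 genes measured 257, 279 and 281 FPKM in WT, above Tuba4a in WT libraries 1 and 2 and below it in WT library 3. In Homo that sum was 143, 135 and 128 FPKM, below Tuba4a in each library.

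**Figure D1:**
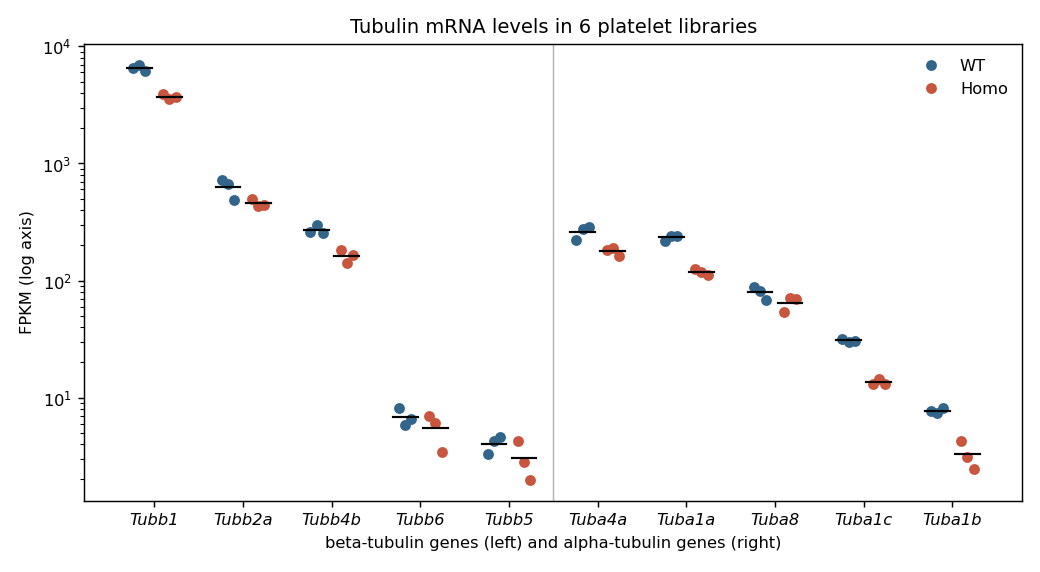
FPKM of the 10 tubulin genes (log axis) in each library, with WT in blue, Homo in red and a black line at each group mean. Homo points lie below all WT points for Tubb1, Tubb4b, Tuba4a, Tuba1a, Tuba1c and Tuba1b, and the groups overlap for Tubb2a, Tubb6, Tubb5 and Tuba8.

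Tubulin mRNA as a whole was lower in the Homo libraries. The 5 β members summed to 7590, 7944 and 6902 FPKM in WT and 4592, 4140 and 4283 in Homo, and the ratio of group means, WT to Homo, was 1.72. The 5 α members summed to 566, 635 and 637 FPKM in WT and 378, 396 and 360 in Homo, a ratio of 1.62. Together they made up 1.15% to 1.34% of the summed FPKM in WT and 0.580% to 0.598% in Homo. The summed FPKM itself was higher in Homo, at 758381 to 856863 against 641278 to 708432 in WT. The percentages therefore differ more between the groups than the tubulin sums do. In these bulk libraries fewer cells of a type and less RNA per cell cannot be told apart. The β sum per α sum was 13.4, 12.5 and 10.8 in WT and 12.1, 10.5 and 11.9 in Homo, ranges that overlap. On the log2 scale that ratio had a mean of 3.61 ± 0.157 in WT and 3.52 ± 0.117 in Homo (SD, n = 3 each). Its level also carries the unknown treatment of shared reads. Of the stretches of 50 bases, 0% are shared with other genes for Tubb1 and 75.5% for Tuba1a.

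Composition is given as the share of each isotype in its class. Tubb1 made up 87.0%, 87.8% and 89.1% of β-tubulin FPKM in WT and 84.9%, 85.9% and 85.8% in Homo, 2.40 percentage points less by group mean, and the groups did not overlap. Tubb2a held 8.31% ± 1.19 in WT and 10.5% ± 0.345 in Homo (SD, n = 3 each), Tubb4b held 3.61% ± 0.167 and 3.75% ± 0.282 with overlap, and Tubb5 and Tubb6 each held under 0.152% in every library. Among α genes the share of Tuba1a was smaller in Homo. It was 38.4%, 38.1% and 38.005% of α-tubulin FPKM in WT and 33.3%, 29.7% and 31.2% in Homo. Tuba4a held 38.9%, 43.2% and 45.1% in WT and 47.9%, 47.9% and 45.2% in Homo, where the lowest Homo value and the highest WT value nearly touch. Tuba8 held 15.7%, 12.8% and 10.8% in WT and 14.2%, 17.9% and 19.3% in Homo, with overlap. Tuba1c held 5.06% ± 0.494 in WT and 3.60% ± 0.105 in Homo, and Tuba1b 1.26% ± 0.106 and 0.866% ± 0.229 (SD, n = 3 each). For the shares of Tubb1, Tubb2a, Tuba1a, Tuba1b, Tuba1c and Tuba4a the two-sided exact permutation p was 0.1, the smallest that 3 against 3 can give, so no share can pass 0.05 in this design. Without the library richest in haemoglobin in each group (WT 1 and Homo 1) the difference in the Tuba4a share was 2.38 points instead of 4.57, and without WT library 1 alone it was 2.82.

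**Figure D2:**
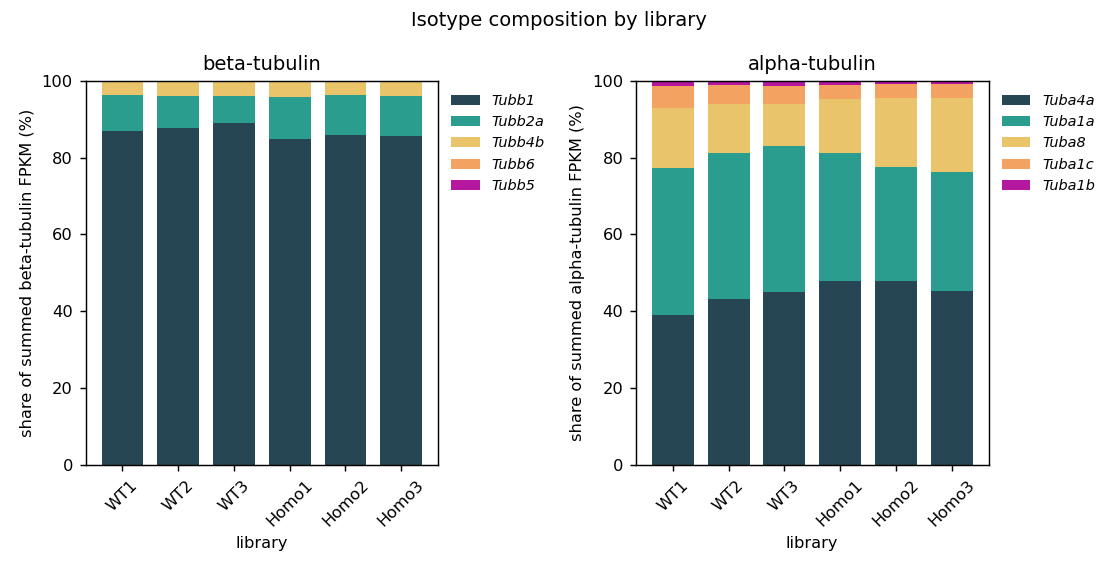
Share of each isotype in the summed β-tubulin FPKM (left) and α-tubulin FPKM (right), in percent, 1 bar per library. Tubb1 fills 84.9% to 89.1% of each β bar, while in the α bars Tuba1a takes 38.005% to 38.4% in WT and 29.7% to 33.3% in Homo.

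Tested within the fit over all genes, 6 of the 10 tubulin genes fell in Homo, 0 rose and 4 did not pass. Those that fell include Tuba1a, Tuba1b and Tuba1c, which are near-identical with an uncertain split of reads, so these are not independent calls. Without the variance trend in the fit 0 of the 10 passed in limma (6 at an unadjusted p under 0.05), with an adjusted p of 0.0623 for Tubb1, and with no filter on low values only Tubb1, Tuba1a and Tuba1c passed (each 0.038). The test was limma on log2(FPKM + 1) with Benjamini-Hochberg adjustment over the 4859 genes with a mean of at least 1 FPKM, and the threshold was an adjusted p of 0.05. Of all genes tested 3.99% fell and 4.36% rose by that rule, and the median log2 fold change was -0.63 over the members and -0.01 over all genes tested. Homo values lay wholly below WT values for 6 of 10 members and wholly above for 0, against 15.8% and 14.9% of all genes tested. Among the 869 genes with a mean of at least 50 FPKM, 98 fell, or 11.3%. Tubb1, the marginal band isotype, changed by -0.82 on the log2 scale (standard error SE 0.08, limma adjusted p = 0.00759), a level 1.77-fold lower. Tuba1a had -0.97 (SE 0.10) and Tuba1c -1.12 (SE 0.13), each with the same limma adjusted p of 0.00759. Tuba1b fell by 1.05 on the log2 scale (SE 0.22, limma adjusted p = 0.0259), and Tubb4b by 0.73 (SE 0.12, adjusted p = 0.0114). Tuba4a had the smallest change of those that passed, -0.54 (SE 0.12, adjusted p = 0.0343).

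The other 4 members also had negative log2 fold changes, without passing. They were -0.43 for Tubb2a (SE 0.15, limma adjusted p = 0.108), -0.35 for Tubb5 (SE 0.27, 0.474), -0.31 for Tubb6 (SE 0.26, 0.521) and -0.30 for Tuba8 (SE 0.15, 0.264). These values moved with single libraries: without Homo library 3 Tubb5 was at -0.16 and Tubb6 at -0.06, without Homo library 1 Tubb5 was at -0.57, Tubb6 at -0.48 and Tuba8 at -0.17, and without WT library 1 Tubb6 was at -0.20. Summed as 1 feature because of their likeness, Tuba1a, Tuba1b and Tuba1c measured 257, 279 and 281 FPKM in WT and 143, 135 and 128 in Homo (log2 fold change -1.0015, limma adjusted p = 0.00748). Tubb2a and Tubb2b summed gave -0.42 (limma adjusted p = 0.111). Both sums were added after the data were seen.

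The calls rested on all 6 libraries to a differing degree. Without Homo library 3 no gene passed in limma, tubulins included, and Tubb1, Tuba1a and Tuba1c each had an adjusted p of 0.0507. Those 3 genes passed when any 1 of the other libraries was left out. Tubb4b did not pass without WT library 2 (limma adjusted p = 0.0591), Homo library 2 (0.0557) or Homo library 3 (0.0583). Tuba4a did not pass without WT library 2 (0.131) or 3 (0.125) or Homo library 2 (0.0844) or 3 (0.128). Tuba1b passed only when Homo library 1 was the one left out, with adjusted p between 0.0608 and 0.0939 for the others. Tubb2a passed without WT library 3 (log2 fold change -0.60, limma adjusted p = 0.0495). Without WT 1 and Homo 1, the libraries richest in haemoglobin, 6 of the 10 members fell, with -0.86 for Tubb1 and -1.07 for Tuba1a. After removal of a trend with transcript length 6 also fell. Tubb1, with an annotated transcript of 1406 bases, then had -0.91 and Tuba1a -0.99. That Tubb1 transcript ends with its stop codon, so any bases after it are not in the length used.

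**Figure D3:**
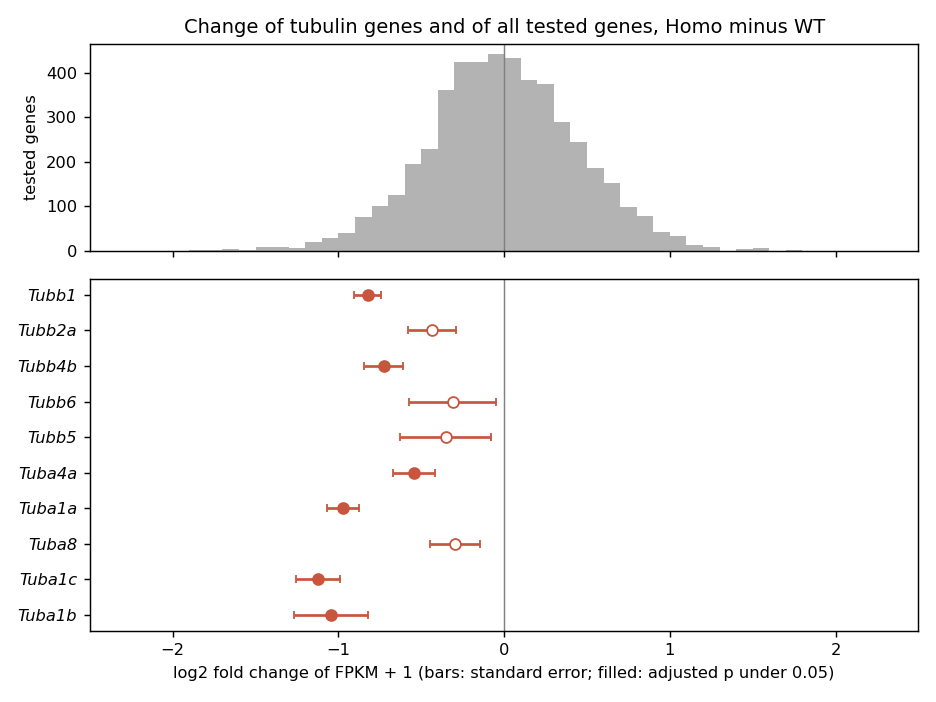
Log2 fold change, Homo minus WT, on the log2(FPKM + 1) scale, as a histogram of the 4859 tested genes (top) and for each tubulin gene with its standard error (bottom). All 10 tubulin values lie below 0, from -0.30 for Tuba8 to -1.12 for Tuba1c, and the 6 filled points passed an adjusted p of 0.05.

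Ratios between isotypes were compared next, and none passed a test of its difference. Within a library, the ratio of 2 isotypes does not depend on the library's scaling, and 20 such ratios were compared, 10 within each class. Groups did not overlap for 7 of the 10 α ratios and for 1 of the 10 β ratios. Ratios within a class share members, and 9 of the 10 α ratios use a Tuba1 gene, whose split is uncertain. Each of those 8 had a two-sided exact permutation p of 0.1, the smallest possible with 3 against 3, and 0.25 after Benjamini-Hochberg adjustment over the 20. Tuba1a per Tuba4a was 0.988, 0.883 and 0.842 in WT and 0.696, 0.621 and 0.691 in Homo, lower in all Homo libraries. Tuba8 per Tuba1a was 0.407, 0.336 and 0.284 in WT and 0.427, 0.602 and 0.617 in Homo, higher in all Homo libraries. Tuba1c per Tuba8 had the largest difference of a ratio without overlap apart from Tuba1b per Tuba8, -0.88 on the log2 scale (SE 0.15) against -0.97 (SE 0.37). The β ratio without overlap was Tubb1 per Tubb2a, at 9.18, 10.5 and 12.6 in WT and 7.79, 8.25 and 8.39 in Homo. Tubb1 per Tubb4b, by contrast, differed by -0.09 on the log2 scale (SE 0.08) and its groups overlapped.

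**Figure D4:**
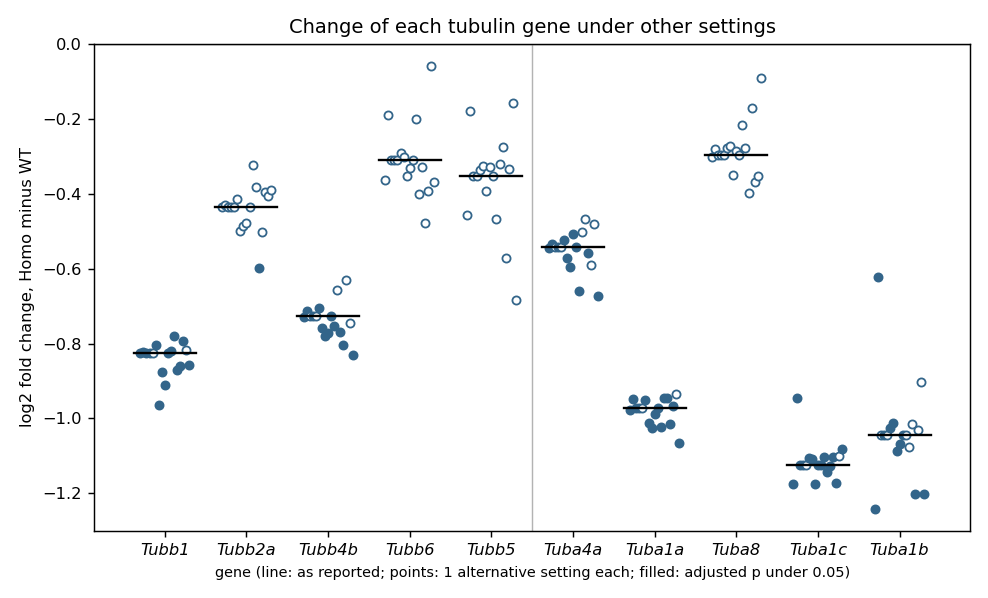
Log2 fold change, Homo minus WT, of each tubulin gene as reported (black line) and under each alternative setting (points, filled where the adjusted p was under 0.05). Every point lies below 0. Tubb1 stays between -0.96 and -0.78, Tuba1b ranges from -1.24 to -0.62 and Tuba8 from -0.40 to -0.09.

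Of the 10 other tubulin genes, Tubb2b alone reached a mean of 1 FPKM. It measured 7.98, 6.71 and 5.68 FPKM in WT and 7.33, 9.48 and 8.94 in Homo, with overlap, and did not pass (difference on the log2 scale 0.30, SE 0.20, limma adjusted p = 0.395). The sign is opposite to that of the near-identical Tubb2a. However, Tubb2a did not pass either, and the split of reads between Tubb2a and Tubb2b is uncertain. Tuba3a, Tuba3b and Tubal3, which encode α chains, and Tubg2, for a γ-tubulin that nucleates microtubules, were listed at 0 in every library. Tubg1, the other γ-tubulin gene, was listed at 0 to 0.631 FPKM.

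Calls among genes that fold or modify tubulin were close to the share over all genes tested, of which 3.99% fell and 4.36% rose. Of 17 tested folding genes, 1 fell and 0 rose, with a median log2 fold change of 0.15. The 1 that fell was Tbcb, for a cofactor that handles free α chains, at 12.7, 17.1 and 14.6 FPKM in WT and 7.65, 8.98 and 6.40 in Homo (log2 fold change -0.87, SE 0.19, limma adjusted p = 0.0298). Pfdn5, a prefoldin subunit gene and the most abundant of the list, stood at 0.19 on the log2 scale without passing (limma adjusted p = 0.419). Of 7 tested genes for enzymes acting on tubulin tails or lysines 0 passed in limma, with a median of 0.03. Ttll1, the catalytic subunit of a polyglutamylase, had the highest mean of these but was below Ttll11, another glutamylase gene, in 4 of the 6 libraries. Ttll1 measured 81.8 ± 4.47 FPKM in WT and 84.0 ± 13.4 in Homo (SD, n = 3 each). Ttl, the enzyme that puts the tyrosine back on α chains, was listed at 0 in every library.

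Among 11 tested genes of nucleation, microtubule ends and motors, 3 fell and 0 rose, with a median log2 fold change of -0.24, where 3.99% of all genes tested fell. They were Dync1i2, a dynein intermediate chain gene (-0.65, limma adjusted p = 0.0455), and the end-binding protein genes Mapre1 (-0.58, 0.0445) and Mapre2 (-0.54, 0.0479), the last named after its values were seen. Kif2a, for a microtubule-depolymerizing kinesin and the most abundant of the list, had 0.23 and did not pass (limma adjusted p = 0.249).

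Among 9 tested genes for megakaryocyte transcription factors and for Ttc5, which marks tubulin mRNA for decay when free tubulin is high, 1 fell and 0 rose, with a median of -0.33, again beside 3.99% of all genes tested that fell. Gata1, which encodes an erythroid and megakaryocyte factor, measured 93.5, 93.8 and 91.8 FPKM in WT and 61.4, 62.8 and 53.8 in Homo, without overlap (log2 fold change -0.64, SE 0.11, limma adjusted p = 0.0127). Nfe2, for the factor known to activate Tubb1, measured 508, 562 and 572 FPKM in WT and 497, 456 and 508 in Homo, so Homo lay just below WT throughout, and it did not pass (log2 fold change -0.17, SE 0.09, limma adjusted p = 0.290). Ttc5 had overlapping groups, with 4.25 to 5.95 FPKM in WT and 1.15 to 8.99 in Homo. Over these lists of other microtubule genes the 5 calls became 10, of which 4 were rises, without WT 1 and Homo 1, and 0 without WT library 2, WT library 3 or Homo library 3.

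Among 868 other genes with a mean of at least 50 FPKM, the 5 with the highest Pearson correlation with Tubb1 over the 6 libraries were Gucy1b3 (0.994), Bid (0.992), Igtp (0.9905), Lmna (0.990) and Odc1 (0.989). They encode a guanylate cyclase subunit, a pro-apoptotic BH3 protein, an interferon-induced GTPase, the nuclear lamins A and C and the first enzyme of polyamine synthesis. With 2 groups of 3 libraries such a correlation is set mostly by the group difference, so it is a description of which genes separate the groups as Tubb1 does. By the same measure Tuba1a stood 7th (0.983) and Tubb4b 16th (0.979) among the 868, Tuba4a 133rd (0.870), Tubb2a 148th (0.839) and Tuba8 253rd (0.652). Lmna measured 206, 206 and 178 FPKM in WT and 138, 122 and 124 in Homo, and Igtp 420, 474 and 402 in WT and 277, 262 and 245 in Homo.

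Because Tubb1 is the most abundant member and fell, the 250 bases before its RefSeq start are printed (chr2:174450345-174450594, plus strand, GRCm38.p6). Capitals mark the letters of the motifs searched on both strands.
Tubb1 promoter: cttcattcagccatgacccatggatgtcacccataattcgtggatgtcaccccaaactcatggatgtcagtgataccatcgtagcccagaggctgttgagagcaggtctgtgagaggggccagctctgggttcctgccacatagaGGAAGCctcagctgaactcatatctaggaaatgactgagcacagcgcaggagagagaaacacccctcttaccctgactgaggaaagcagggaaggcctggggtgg

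The GATA motif was searched as AGATAA, with the further forms TGATAA, then also AGATAG, and lastly the form TGATAG. The NF-E2 core was searched as TGACTCA and its reverse complement TGAGTCA, and the ETS core as GGAAGT and also as GGAAGC, and none of these letters overlap in the window shown. The window holds 1 ETS match, starting 105 bases before the start. Over 32851 promoter windows of the same length 37.0% hold an ETS match, 26.5% a GATA match and 4.46% an NF-E2 core match. That RefSeq start lies upstream of the GENCODE gene start of Tubb1 at 174450695. Promoters were found for 9 of the 10 members. Besides Tubb1, ETS matches were in Tubb4b (216 bases before the start) and Tuba8 (183), and GATA matches in Tubb4b (150) and Tubb5 (206 and 9). A match is a description of letters and does not show binding, and no match says only that these letters are not in this window.

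By gene position on GRCm38 (GENCODE M21), Tubb1 spans chromosome 2 from 174450695 to 174457882 (plus strand), Tubb2a chromosome 13 from 34074274 to 34078007 (minus) and Tubb4b chromosome 2 from 25222160 to 25224702 (minus). Tubb5 spans chromosome 17 from 35833921 to 35838306 (minus). The Tuba1 genes are neighbours on chromosome 15, Tuba1b from 98931425 to 98934565 and Tuba1a from 98949837 to 98953703 on the minus strand, and Tuba1c from 99029891 to 99038110 on the plus strand. Tuba4a spans chromosome 1 from 75214228 to 75219865 (minus) and Tuba8 chromosome 6 from 121210696 to 121226854 (plus).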

How the data were processed

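RNA of 6 platelet libraries was measured, 3 WT and 3 Homo, grouped and numbered by their titles. Per the labels' protocols, TRIzol and miRNeasy Micro columns gave the RNA, SMART-Seq HT the cDNA and Nextera XT the libraries. The authors deposited FPKM per gene symbol, 1 table per library. Cuffdiff 2.2.1, TopHat2 2.1.1, SAMtools 0.1.18 and Bowtie2 2.2.8 are named, with build mm10, per the submitters' processing notes. No source used here gives their settings or the annotation. Coding ends of the other members are not reported here. Absolute depth is unknown. The commonest ratio of low values gave depths relative to WT library 1 of 1.05 and 1.02 for WT libraries 2 and 3 and 0.880, 1.00 and 1.05 for Homo libraries 1, 2 and 3.

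The values were used without further scaling. Genes with a mean of at least 1 FPKM entered a limma fit (version 3.58.1, R 4.3.3) of log2(FPKM + 1) on group alone. Its moderated test was two-sided, used a variance trend and was adjusted by Benjamini-Hochberg over all genes tested. Fold changes on this scale understate those of low genes. Data were simulated from these libraries, with 4859 genes and 100 changed at each size. On them the fit called 23% of 2-fold changes and 3% of changes of 0.5 on the log2 scale, so many such changes were missed. Fewer genes changed there than the 406 called here, so these shares need not hold for this fit. An exact 0 can be a failed estimate and is given as listed at 0. All 10 members and each listed tubulin above the filter are named, and from each other list the most abundant gene and up to 2 called genes with the largest change. The members and lists were chosen with earlier results of these data known. Alternatives covered the pseudocount, the filter, scaling, the variance trend, transcript length, a replicate block and each library left out.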

Additional observations from a re-analysis of the deposited data

How the results depend on the processing

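All 10 members kept a negative log2 fold change in every setting run. The 6 tubulin calls were 6 with pseudocounts of 0.1 and 5, a filter at a mean of 5 FPKM, each scaling, removal of the length trend and without both libraries richest in haemoglobin. They were 3 with no filter on low values and 0 without the variance trend (6 of the 10 at an unadjusted p under 0.05 in limma), and ranged from 0 to 6 with 1 library left out. Over all genes the 406 calls became 107 with no filter, 0 without the variance trend (1197 at an unadjusted p under 0.05) and 728 without WT 1 and Homo 1, with a range of 0 to 610 with 1 library left out; 0 was reached without Homo library 3, where 994 genes had an unadjusted p under 0.05. The 5 calls of the other microtubule lists became 1 with no filter, 0 without the variance trend (11 unadjusted), 3 with quantile normalization, 2 after removal of the length trend and 10 without both libraries richest in haemoglobin, and ranged from 0 to 6 with 1 library left out. The cause of these changes was not tested. Leaving out a library also leaves fewer samples, with 610 genes called without Homo library 1 and 0 without Homo library 3. No filter also leaves more genes tested. Whether the same replicate number in both groups pairs the libraries is unknown and was not tested. Correlations of deviations from the group means were 0.158, 0.0235 and 0.141 for numbers 1, 2 and 3. Between libraries of unlike number they ran from -0.160 to 0.0674. With the replicate number as a block, 306 genes and 6 tubulins were called, and 2 genes of the other lists. The difference in the Tubb1 share was -1.84 to -2.89 points with 1 library left out, that in the Tuba4a share 2.82 to 5.92, and that in the log2 ratio of β to α sums -0.18 to -0.02. Absolute depth is unknown, so no counting error can be given for the low values of Tubb5, Tubb6 and Tuba1b, which stayed under 9 FPKM.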
